A study of Mus musculus with 18 samples.

Results

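Autotaxin, the lysophosphatidate (LPA) receptors and the genes that make, export and sense sphingosine 1-phosphate (S1P) were followed in mouse endothelium and in a breast cancer line. The set was listed by name and holds 10 genes: Enpp2, Lpar1, Lpar4, Lpar5, Lpar6, S1pr1, S1pr3, Spns2, Sphk1 and Sphk2. They were found by Ensembl identifier among 55401 lines of the endothelial table and by symbol among 22612 lines of the EO771 table. After a filter on low values, 9 of the 10 were tested among 18511 endothelial genes and 7 of the 10 among 11602 EO771 genes.

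The endothelial libraries came from wild-type C57BL/6 mice in 4 groups of 3. BEC normal libraries came from blood vessel endothelial cells of the mammary fat pad, and BEC tumour libraries from the same kind of cell in EO771 primary tumours grown there. HEC normal libraries came from high endothelial cells of inguinal lymph nodes of mice without tumour, and HEC tumour libraries from high endothelial cells of nodes that the labels call lymph node metastases. Endothelial cells were sorted as CD45- CD31 high cells, and HECs were taken from them as PNAd+ cells. BECs and HECs therefore differ in tissue as well as in cell type, and the share of each cannot be told apart. BEC normal and BEC tumour also differ in tissue, fat pad against tumour, while both HEC groups came from lymph node. The other 6 libraries, 3 per group, were made from the mouse mammary tumour line EO771 in culture, exposed to vehicle alone or to 12-HETE, the product of the lipoxygenase ALOX12. The labels do not say that libraries of a group came from separate animals or cultures.

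Autotaxin, the protein of Enpp2, is a secreted enzyme that turns lysophosphatidylcholine into LPA. High endothelial venules, the lymph node vessels through which lymphocytes leave the blood, are a known source of autotaxin, and LPA acts there on receptors of endothelial cells and lymphocytes to aid transmigration. S1P is made from sphingosine by the kinases Sphk1 and Sphk2, leaves endothelial cells through the exporter Spns2, and steers lymphocyte traffic and vessel barrier function through S1pr1 and its relatives.

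Library totals ran from 56.4 to 79.4 M deposited units in the endothelial table, whose values moved in steps of 3.73 to 3.78 units (15 to 21.0 M steps per library), and from 17.3 to 18.6 M counts in the EO771 table. The pan-endothelial markers were detected in all endothelial groups, 10 of 10, at a summed 2362 to 3591 CPM (counts scaled to library size). Of these, Cldn5 was at 232 to 280.4 CPM in BEC normal and at most 2.01 CPM elsewhere, and Kdr at 323.5 to 381 CPM in BEC normal and 66.6 to 143 CPM elsewhere. Epithelial markers summed to 20 to 93.6 CPM in BEC tumour, at most 6.93 CPM in BEC normal and 27.9 to 34.1 CPM in HECs. In HECs most of this was Krt19, at 26.4 to 32.7 CPM. Glycam1 and Chst4, which define high endothelium, were at 0 in every BEC library, while Ccl21a and Chst2 were at 0 in both HEC groups. Ackr1 and Madcam1 were at 0 in HEC normal and at most 0.0762 and 0.257 CPM in HEC tumour, and Chst2 was at 18.8 to 22.9 CPM in BEC normal. The 10 high endothelial markers summed to 1839 to 3750 CPM in HECs and 526 to 869.5 in BECs. In BECs most of that sum was Cd34, at 472 to 838 CPM, against 665 to 851 CPM in HECs. The lymphatic endothelial, adipocyte, B cell and platelet markers summed to at most 362, 223, 10.5 and 32.2 CPM in any endothelial library. HEC normal replicate 2 stood apart in Chst4, with a normalised count of 4.07 against 19906 and 20205 in the other replicates. In every endothelial library between 6 and 19 genes fell away in this manner (more than 8-fold under otherwise close replicates). Enpp2 was among the 14 genes that did so in HEC normal replicate 2.

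**Figure D1:**
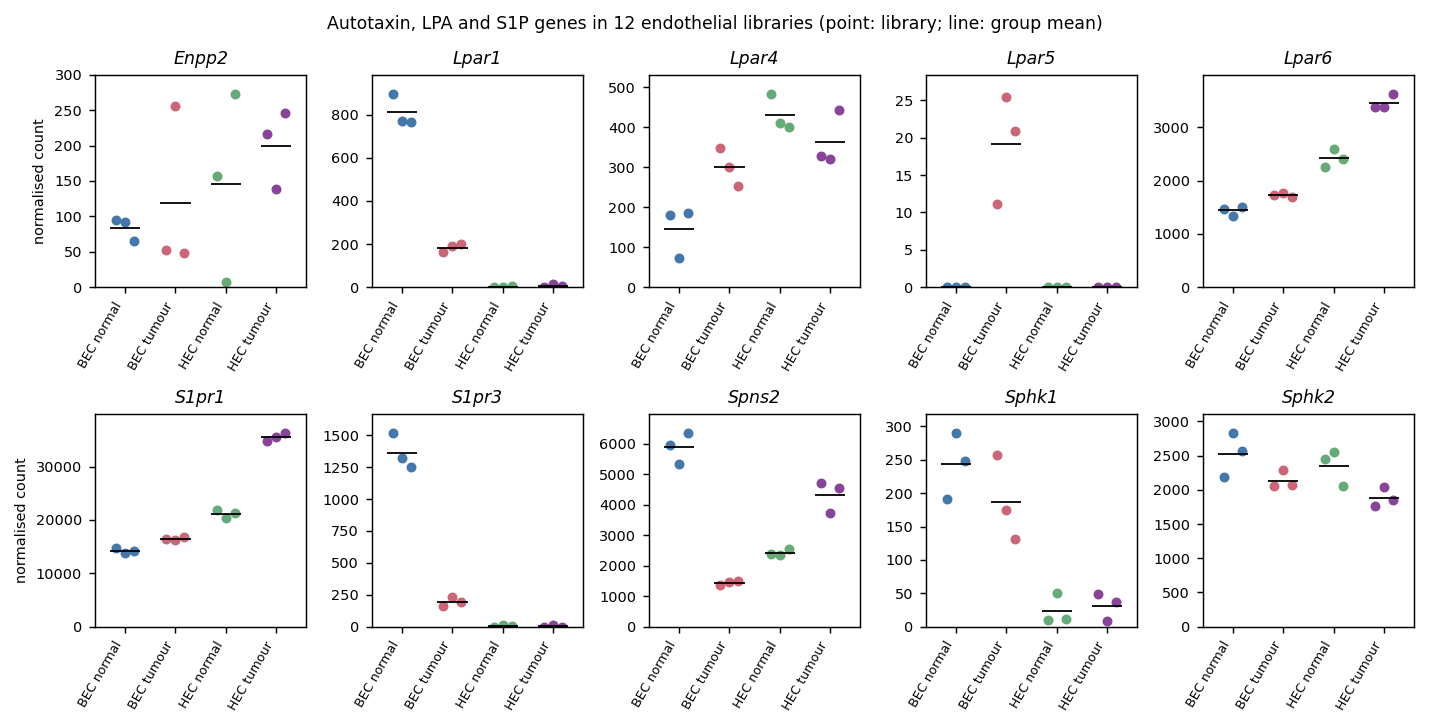
Normalised count (DESeq2 size factors, vertical axis from 0, own scale per gene) of the 10 genes in each of the 12 endothelial libraries; points are libraries and lines are group means. S1pr1 and Lpar6 step upwards from BEC normal to HEC tumour with no overlap between groups, Spns2 is lowest in BEC tumour, Lpar1 and S1pr3 sit near 0 in both HEC groups, and Enpp2 has single libraries far from their group.

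Spns2, the S1P exporter, had 4 groups that did not overlap, in an order of its own. Its normalised counts were 5966, 5330 and 6344 in BEC normal and 1356, 1475 and 1484 in BEC tumour. They were 2382, 2337 and 2550 in HEC normal and 4704, 3716 and 4534 in HEC tumour. Spns2 was thus the lower in HECs where no tumour was present and the higher in HECs where it was. Without tumour the log2 fold change of HECs against BECs was -1.28 ± 0.11 (SE), with an adjusted p of 4.84e-32 (DESeq2 Wald test, Benjamini-Hochberg adjustment). With tumour it was 1.59 ± 0.11 (DESeq2 adjusted p = 1.61e-47). In BECs Spns2 fell by 2.03 ± 0.11 on the log2 scale with tumour (DESeq2 adjusted p = 5.37e-78). In HECs the log2 fold change with tumour was 0.83 ± 0.11, with an adjusted p of 1.6e-13 by DESeq2 but a size below the fold threshold. The difference between these changes, tested as the interaction of tumour and cell type, was 2.86 ± 0.15 on the log2 scale (DESeq2 adjusted p = 1.36e-77). Over 18 alternatives it ran from 2.80 to 2.96. Spns2 lies on chromosome 11 (72451638 to 72489904, minus strand, GRCm38), and 3.21% of its exon bases overlap exons of Mybbp1a on the other strand.

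S1pr1, the main endothelial S1P receptor, was the most abundant of the 10 genes per kilobase of exon in all 4 endothelial groups. Its normalised counts were 14799, 13769 and 14114 in BEC normal, and 16348, 16198 and 16735 in BEC tumour. HEC normal libraries had 21828, 20356 and 21291, and HEC tumour libraries had 34887, 35519 and 36266. The groups did not overlap, and each library of HEC tumour lay above each of the other 9. The level per kilobase exceeded that of 95.1% of tested genes in BEC normal and of 98.3% in HEC tumour. With tumour present, S1pr1 was higher in HECs than in BECs by a log2 fold change of 1.11 ± 0.05 (DESeq2 adjusted p = 2.45e-132). Without tumour the difference was 0.57 ± 0.05 (DESeq2 adjusted p = 2.21e-35), below the fold threshold. The change with tumour was 0.75 ± 0.05 in HECs and 0.21 ± 0.05 in BECs, both with DESeq2 adjusted p-values under 0.05 (1.41e-59 and 1.81e-05) and under the fold threshold. The interaction was 0.54 ± 0.06 (DESeq2 adjusted p = 3.23e-16). S1pr1 lies on chromosome 3 (115710433 to 115715072, minus strand), with no overlapping exons.

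The other measured S1P receptor of the set, S1pr3, known from smooth muscle as well as endothelium, had the opposite pattern. It was at normalised counts of 1515, 1323 and 1254 in BEC normal, and 159, 233 and 195 in BEC tumour. In HEC normal the values were 0, 12.2 and 7.6, and in HEC tumour 0, 9.9 and 0. S1pr3 was thus near absent in HECs and dropped within BECs with tumour, with no overlap between BEC libraries and HEC libraries. Counted in steps of the table, BEC normal held 1085 and HEC normal 5, a ratio of 220 per depth with a counting interval of 94.2 to 680.2. BEC tumour held 178 and HEC tumour 3, a ratio of 48.5 (16.3 to 237). The fitted log2 fold changes of HECs against BECs were -7.69 ± 1.22 without tumour (DESeq2 adjusted p = 1.17e-09) and -5.86 ± 1.27 with tumour (DESeq2 adjusted p = 1.41e-05). In BECs the log2 fold change with tumour was -2.80 ± 1.18 (DESeq2 adjusted p = 0.0339), and the call was lost when any 1 of the 6 BEC libraries was left out (adjusted p 0.103 to 0.144). A fit of the BEC libraries alone gave an adjusted p of 2.41e-47. S1pr3 lies on chromosome 13 (51408639 to 51422797, plus strand).

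Sphk1, the inducible sphingosine kinase, was low throughout. Normalised counts were 191.4, 289.5 and 248.9 in BEC normal, and 257, 174 and 131 in BEC tumour. HEC normal had 10.1, 49.9 and 11.5, and HEC tumour 49.6, 7.9 and 36.5. All 6 BEC libraries lay above all 6 HEC libraries, and within a cell type the groups overlapped. The log2 fold change of HECs against BECs was -3.35 ± 0.68 without tumour (DESeq2 adjusted p = 2.2e-06) and -2.58 ± 0.67 with tumour (DESeq2 adjusted p = 0.000376). Sphk1 lies on chromosome 11 (116530925 to 116536674, plus strand), with 4.02% of its exon bases under the antisense gene Gm29292.

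Sphk2, the constitutive kinase, was well expressed in all 4 groups. Its normalised counts ran from 2192 to 2827 in BEC normal, 2052 to 2288 in BEC tumour, 2053 to 2554 in HEC normal and 1764 to 2035 in HEC tumour. No comparison called it. The log2 fold change nearest to a call was -0.32 ± 0.12 in HECs with tumour (95% interval -0.56 to -0.08, DESeq2 adjusted p = 0.0296), and its adjusted p rose above 0.05 when any of 4 of the 6 HEC libraries was left out. Sphk2 lies on chromosome 7 (45709467 to 45718002, minus strand), where 13% of its exon bases overlap Dbp and 8.97% overlap Rpl18, both on the other strand, so its values are uncertain if reads were counted without regard to strand.

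Enpp2, the autotaxin gene, was not distinguishable between high endothelium and other blood endothelium. Normalised counts were 95.2, 91.8 and 66 in BEC normal, and 52.9, 256.3 and 48.8 in BEC tumour. They were 157.2, 8.1 and 272.3 in HEC normal, and 215.9, 138.2 and 245.7 in HEC tumour. In each of the HEC normal and BEC tumour groups a single library set the spread, replicate 2 at the bottom of HEC normal and replicate 2 at the top of BEC tumour. The level per kilobase exceeded that of only 18.9% (BEC normal) to 25.3% (HEC tumour) of tested genes. The log2 fold change of HECs against BECs was 0.79 ± 0.88 without tumour (95% interval -0.93 to 2.51, DESeq2 adjusted p = 0.442) and 0.74 ± 0.88 with tumour (-0.97 to 2.46, DESeq2 adjusted p = 0.494). With both libraries left out, an alternative chosen after seeing the data, the differences were 1.35 (DESeq2 adjusted p = 0.00146) and 1.97 (DESeq2 adjusted p = 6.06e-06). With HEC normal replicate 2 alone left out the first was 1.35 (DESeq2 adjusted p = 0.0746), with HEC normal replicate 3 alone left out it was -0.03, and with BEC tumour replicate 2 alone left out the other was 1.97 (DESeq2 adjusted p = 0.0566). Enpp2 lies on chromosome 15 (54838901 to 54952892, minus strand), with 5.97% of its exon bases under Gm26684 on the other strand.

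Lpar1, the LPA receptor best known from mesenchymal cells, was found mainly in the BEC libraries. Its normalised counts were 895, 769.6 and 767 in BEC normal and 162, 192 and 199 in BEC tumour. HEC normal had 0, 0 and 7.6, and HEC tumour had 0, 14.8 and 7.7. BEC normal libraries lay above all others, BEC tumour libraries lay between, and HEC libraries were at or near 0. In steps of the table the counts were 645 in BEC normal against 2 in HEC normal, a ratio of 328 per depth (90.3 to 2711). They were 167 in BEC tumour against 6 in HEC tumour, a ratio of 22.7 (10.2 to 62.8). The fitted log2 fold changes were -8.28 ± 0.79 (DESeq2 adjusted p = 6.14e-25) and -4.59 ± 0.67 (DESeq2 adjusted p = 6.81e-11). In BECs Lpar1 was lower with tumour by -2.14 ± 0.60 on the log2 scale (DESeq2 adjusted p = 0.000973), a call lost in 9 of 13 alternatives, among them each fit with 1 of the 6 BEC libraries left out (adjusted p 0.216 to 0.256). A fit of the BEC libraries alone gave 8.19e-35. Lpar1 lies on chromosome 4 (58435255 to 58553898, minus strand).

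The summed level of fibroblast and pericyte markers moved with Lpar1 and S1pr3 across the groups. The summed level of 11 marker genes was 903 to 920.1 CPM in BEC normal, 103 to 136 CPM in BEC tumour, 26.0 to 27.9 CPM in HEC normal and 11.7 to 12.5 CPM in HEC tumour. Most of the sum was Acta2 in BEC normal, at 620.6 to 622.5 CPM, and Pdgfra in HECs. Not every marker followed the sum. Pdgfra was at 13.9 to 17.6 CPM in BEC normal, 4.95 to 6.91 in BEC tumour, 15.3 to 16.9 in HEC normal and 7.36 to 8.26 in HEC tumour. Dcn was at 2.14 to 3.55 CPM in BEC normal and 3.08 to 10.4 CPM in BEC tumour. Of the 11, 9 were detected in BEC normal, 11 in BEC tumour, and 9 in each HEC group, with Ccl19 at 0 in all groups but BEC tumour and Lum at 0 in both normal groups. Both receptors had the same order of groups as the summed markers as far as BEC normal, BEC tumour and HECs, and the part of these cells in the result was not tested. In bulk libraries fewer cells of a type and less RNA per cell cannot be told apart.

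**Figure D2:**
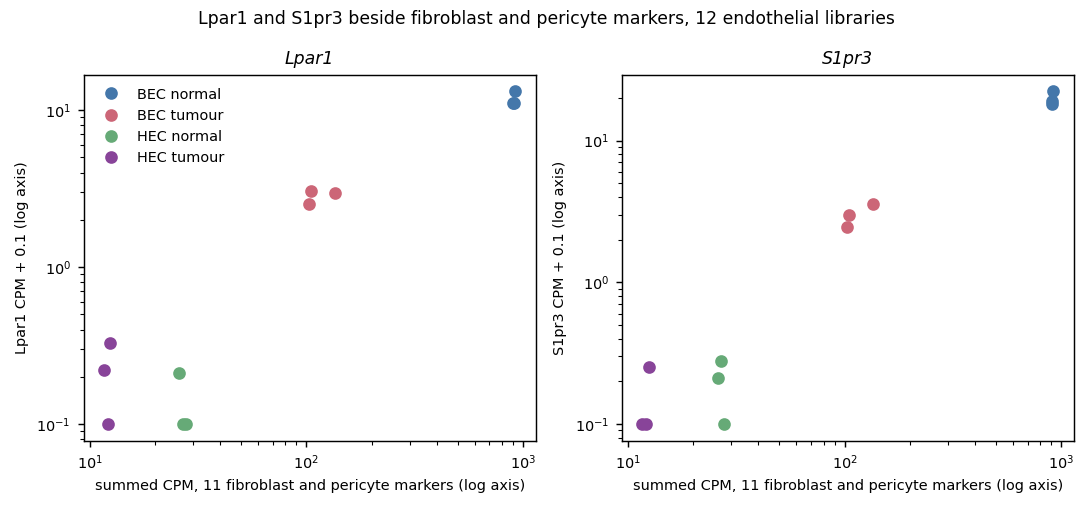
Lpar1 (left) and S1pr3 (right) in CPM plus 0.1 against the summed CPM of 11 fibroblast and pericyte markers in the same library, both on log axes; each point is 1 of 12 endothelial libraries, coloured by group. BEC normal libraries hold the highest values on both axes, BEC tumour libraries (103 to 136 CPM of markers) lie between, and the HEC libraries lie at 27.9 CPM of markers or less.

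Lpar6, a G12/13-coupled LPA receptor mutated in a hereditary form of hair loss, was the most abundant LPA receptor of the set per kilobase in 4 of 4 endothelial groups. Its normalised counts were 1476, 1345 and 1512 in BEC normal, and 1724, 1758 and 1690 in BEC tumour. HEC normal had 2250, 2586 and 2407, and HEC tumour had 3375.5, 3369 and 3621. The groups rose in that order with no overlap. The log2 fold change of HECs against BECs was 0.74 ± 0.08 without tumour (DESeq2 adjusted p = 3.7e-20) and 1.00 ± 0.08 with tumour (DESeq2 adjusted p = 5.86e-37). The latter stood at the fold threshold and was past it in the main fit and 7 of 13 alternatives, over a range of 0.97 to 1.02. Leaving out BEC tumour replicate 3 (0.99) or HEC tumour replicate 3 (0.97) took it below. With tumour Lpar6 differed by 0.52 ± 0.08 in HECs and 0.25 ± 0.08 in BECs (DESeq2 adjusted p = 2.97e-10 and 0.00322), both under the fold threshold. Lpar6 lies on chromosome 14 (73237895 to 73243294, plus strand) inside Rb1, whose exons on the other strand overlap 7.56% of its exon bases.

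Lpar4, the LPA receptor that acts with Lpar6 in vessel formation, was higher in 3 groups than in BEC normal. Normalised counts were 180, 73.0 and 185 in BEC normal, and 346.9, 299.5 and 252 in BEC tumour. HEC normal had 483, 411 and 399, and HEC tumour had 329, 321 and 443. All BEC normal libraries lay below the other 9, and the HEC groups overlapped each other. Without tumour Lpar4 was higher in HECs by 1.56 ± 0.32 on the log2 scale (DESeq2 adjusted p = 2.71e-06). With tumour the difference was 0.28 ± 0.31 (95% interval -0.33 to 0.90, DESeq2 adjusted p = 0.467). In BECs Lpar4 rose with tumour by 1.03 ± 0.32 (DESeq2 adjusted p = 0.00294), and the value was 0.71 without BEC normal replicate 2 and 0.92 without BEC tumour replicate 1, both under the fold threshold. The interaction was -1.28 ± 0.45 (DESeq2 adjusted p = 0.0111), and -0.95 without BEC normal replicate 2. Lpar4 lies on chromosome X (106920625 to 106933900, plus strand).

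Lpar5, an LPA receptor known from leukocytes, was found in 1 endothelial group. BEC tumour libraries had normalised counts of 11.1, 25.4 and 20.9, and the other 9 libraries had 0. The gene did not reach the mean of 10 needed for testing. In steps of the table BEC tumour held 17 and each other group 0, so no ratio is given. BEC tumour libraries also carried leukocyte transcripts: the 9 myeloid markers summed to 1605 to 2227 CPM there, against 108 to 129 in BEC normal, 483 to 509 in HEC normal and 356 to 374 in HEC tumour. The myeloid sum outside BEC tumour was mostly Cd68, at 101.5 to 116.8 CPM in BEC normal and 349.9 to 502.6 CPM in HECs. Adgre1, C1qa and C1qb were at most 0.0583 CPM in those groups and at 14.9 to 132 CPM in BEC tumour. T cell markers summed to 28.9 to 47.9 CPM in BEC tumour and to at most 8.21 CPM elsewhere, and all 9 were detected only in BEC tumour. Most of that sum in BEC tumour was Cd4, at 21.0 to 40.1 CPM, with Cd3d, Cd3e, Cd3g and Cd8a at most 0.401 CPM. The part of these cells in the Lpar5 values was not tested. Lpar5 lies on chromosome 6 (125067920 to 125082472, plus strand).

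Across the set, HECs without tumour differed from BECs without tumour in 5 of 9 tested members, where a gene was called at a DESeq2 adjusted p under 0.05 and a log2 fold change over 1 in size. Lpar4 was the member that rose, against 17.1% of all tested genes called higher, and Lpar1, S1pr3, Spns2 and Sphk1 were the 4 that fell, against 15.1% called lower. With tumour, 3 members rose in HECs against BECs (Lpar6, S1pr1 and Spns2, beside 11.2% of all genes) and 3 fell (Lpar1, S1pr3 and Sphk1, beside 10.7%). Lpar1 and S1pr3 passed the filter on low values through their BEC libraries alone. These comparisons and those below share libraries, so their values are given side by side and are not independent of each other.

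**Figure D3:**
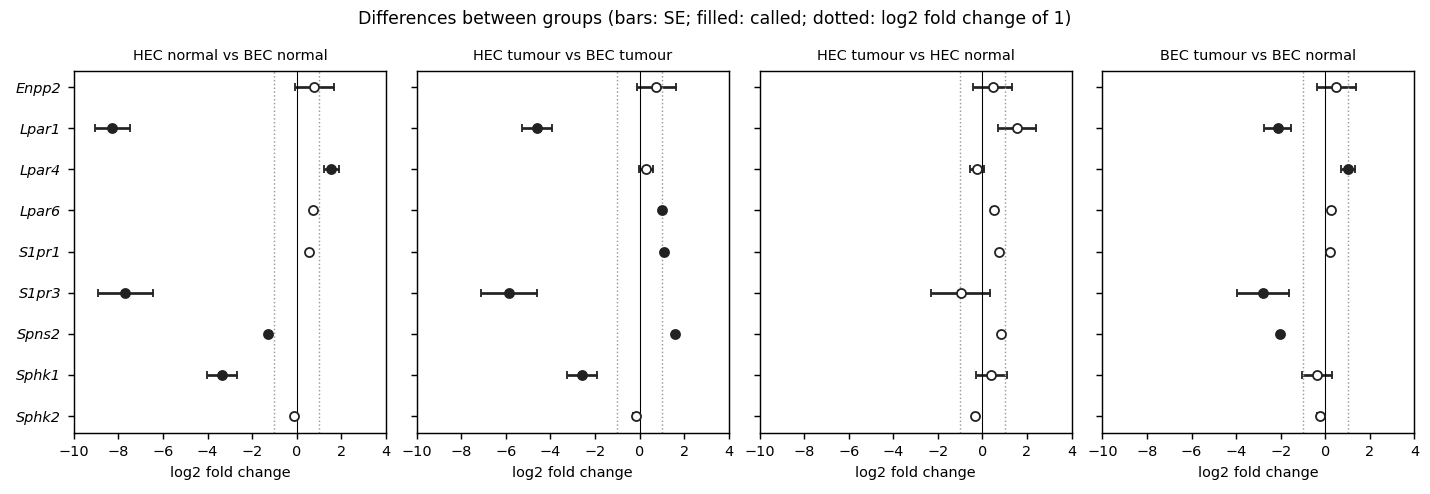
Log2 fold change (horizontal axis) with SE bars of the 9 tested genes in 4 comparisons; filled points are called and dotted lines mark a log2 fold change of 1 in either direction. Spns2 changes side between HEC normal vs BEC normal (-1.28) and HEC tumour vs BEC tumour (1.59), and no point is filled in HEC tumour vs HEC normal.

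Tumour in the HEC comparison called 0 of 9 members by DESeq2 and 0 by edgeR, against 4.58% of all genes higher and 3.21% lower. At an unadjusted p under 0.05 there were 4, and these 4 also had an adjusted p under 0.05: Lpar6, S1pr1 and Spns2 higher (beside 16.9% of all genes) and Sphk2 lower (beside 18.5%). Lpar1 was called when HEC normal replicate 3 or HEC tumour replicate 1 was left out, and S1pr3 when HEC tumour replicate 2 was left out, in each case from counts near 0. In BECs, tumour called 4 of 9 members. Lpar4 was called higher, beside 12.4% of all genes, and Lpar1, S1pr3 and Spns2 lower, beside 10.8%. The median log2 fold change of the 9 was 0.45 in HECs and -0.24 in BECs, where the medians of all genes were 0.02 and 0.01. The HEC median was the value of Enpp2 (0.45 ± 0.87, DESeq2 adjusted p = 0.748), which was -0.11 without HEC normal replicate 2. The BEC median was the value of Sphk2 (DESeq2 adjusted p = 0.083). Neither median is a test of the set. The interaction called Lpar1 and Spns2 with a positive sign, beside 11.2% of all genes, and Lpar4 with a negative sign, beside 12.1%. By adjusted p alone it had 4 members with a positive sign and 1 with a negative sign, beside 22.9% and 23.8% of all genes, and 10 and 4 of the 33 other pathway genes tested. For Lpar1 the interaction (3.69 ± 1.04, DESeq2 adjusted p = 0.00122) rested on HEC libraries at 0 to 14.8 normalised counts and lost its call in 11 of 18 alternatives, each fit without a BEC library among them (adjusted p up to 0.233 over all).

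**Figure D4:**
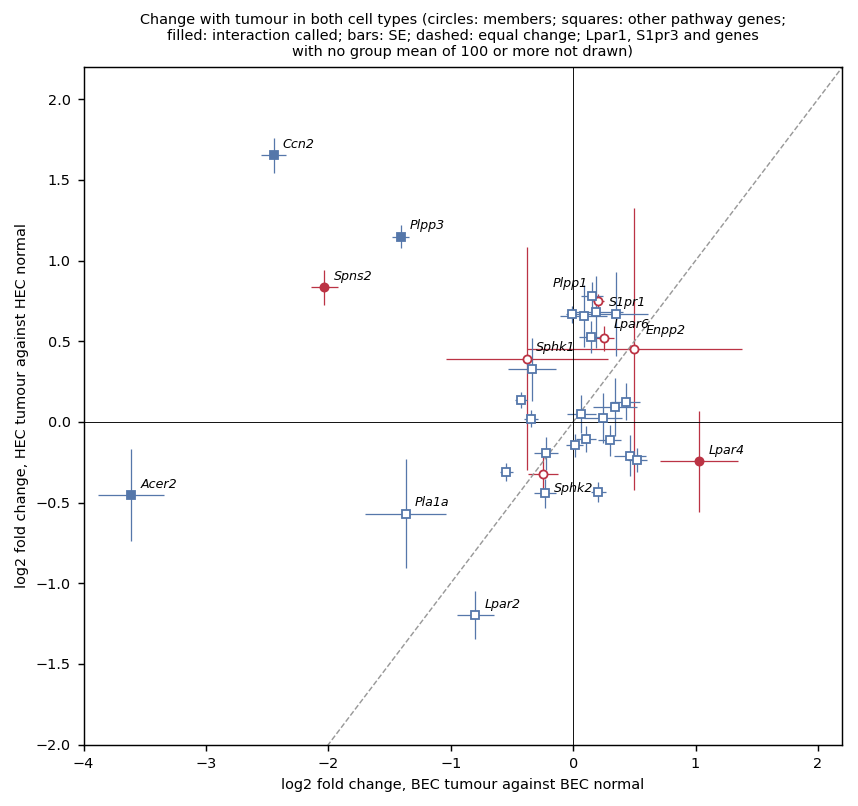
Log2 fold change with tumour in BECs (horizontal axis) and in HECs (vertical axis) of the tested members (red circles) and other pathway genes (blue squares), with SE bars; filled symbols have a called interaction and the dashed line marks equal change. Spns2, Plpp3 and Ccn2 lie in the upper left, lower in BECs with tumour and with positive values in HECs.

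Of 38 other genes of LPA and S1P metabolism, signalling and response, taken from 9 lists, 33 were tested in endothelium. Without tumour, HECs differed from BECs by the same rule in 5 of them, 1 higher (beside 17.1% of all genes) and 4 lower (beside 15.1%), so neither share was above that of all genes. Rock1, a kinase that drives actomyosin contraction, was higher by 1.25 ± 0.26 on the log2 scale. Plpp3, the phosphatase that breaks down extracellular LPA and S1P, was lower by -1.22 ± 0.07 and Acer2, a Golgi ceramidase that supplies sphingosine, by -3.56 ± 0.27. Ccn2, a matricellular gene induced through YAP and SRF, was lower by -3.81 ± 0.11, and Liph, an enzyme that makes LPA from phosphatidic acid, by -3.36 ± 0.73 at normalised counts of 118 or less. Liph averaged 7.97 in HEC normal and passed the filter on low values through its BEC libraries alone. All 5 had DESeq2 adjusted p-values under 0.05.

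With tumour, HECs against BECs gave 5 of 33 higher, beside 11.2% of all genes, and 2 lower, beside 10.7%. Plpp3 was now the higher in HECs by 1.34 ± 0.07 on the log2 scale. Rock1 (1.57 ± 0.26) and its paralog Rock2 (1.47 ± 0.22) were also higher. Apom, the plasma carrier of S1P, was higher by 2.39 ± 0.81, and S1pr4, a leukocyte S1P receptor, by 1.61 ± 0.60. Both were scarce, at normalised counts of 52.0 or less in every library, and the S1pr4 call was lost without BEC tumour replicate 1, HEC tumour replicate 1 or HEC tumour replicate 3 (adjusted p up to 0.0849). Apom averaged 9.98 in BEC normal and 5.61 in BEC tumour and passed the filter on low values through its HEC libraries alone. Arhgef11, an exchange factor activated through G12/13, was lower by -1.05 ± 0.06 and Liph by -3.46 ± 0.79. Liph averaged 4.49 in HEC tumour and, as above, passed the filter through its BEC libraries alone.

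Plpp3 shared the pattern of Spns2. Its normalised counts were 8073.4, 8165.5 and 7853.5 in BEC normal and 3245, 2948 and 2880 in BEC tumour, with 3654, 3178 and 3522 in HEC normal and 7389, 7788 and 7781 in HEC tumour. Plpp3 fell by 1.41 ± 0.07 on the log2 scale with tumour in BECs and rose by 1.15 ± 0.07 in HECs, and the interaction was 2.56 ± 0.10 (DESeq2 adjusted p = 2.61e-139). Ccn2 went from 20420 to 23250 normalised counts in BEC normal to 3649 to 4250.1 in BEC tumour, and from 1383 to 1775 in HEC normal to 4610 to 5226 in HEC tumour. It fell by 2.45 ± 0.11 in BECs, rose by 1.65 ± 0.11 in HECs, and had an interaction of 4.10 ± 0.15 (DESeq2 adjusted p = 5.3e-160). Acer2 fell by 3.61 ± 0.27 in BECs, from 1345 to 1378 normalised counts to 84.4 to 136, and stood at 51.9 to 132 in both HEC groups, with an interaction of 3.16 ± 0.39 (DESeq2 adjusted p = 9.63e-15). The summed fibroblast and pericyte markers, mostly Acta2 in BEC normal, were at 903 to 920.1 CPM there and 103 to 136 CPM in BEC tumour. This sum moved with the lower values of Spns2, Plpp3, Ccn2 and Acer2 in BECs, and the part of these cells in them was not tested. Lpar2, an LPA receptor outside the set, fell by 1.20 ± 0.15 in HECs with tumour (DESeq2 adjusted p = 2.75e-14), from 994 to 1338 normalised counts to 476 to 539. In BECs Pla1a, a phosphatidylserine lipase, fell by 1.37 ± 0.33 (DESeq2 adjusted p = 0.00013).

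Of the other YAP and SRF genes, Ccn1 did not follow Ccn2 in BECs. Its normalised counts lay between 27284 and 31007 in BEC normal, BEC tumour and HEC normal, and between 47549.9 and 47807.7 in HEC tumour. Ankrd1 and Amotl2 were at 11908 and 8603 in HEC tumour replicate 2, against 23033 and 24075 (Ankrd1) and 16136 and 15184 (Amotl2) in the other replicates. By count, 1 of 4 genes of the list was called lower and 0 higher in BECs with tumour, beside 10.8% and 12.4% of all genes, and 1 higher and 0 lower in HECs with tumour, beside 4.58% and 3.21%.

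The genes whose levels followed 3 of the members most closely were found by correlation of log2(normalised count + 1) over the 12 endothelial libraries, which share groups and replicates and are described without a test. For S1pr1 they were Snhg17 (r = 0.99), Ofd1 (0.99) and Prmt6 (0.98). For Spns2 they were Zfp706 (0.98), Phlda1 (0.98) and Gimap5 (0.98). Phlda1 averaged 4589 normalised counts in BECs without tumour and 1649 with it, and 2751 in HECs without tumour and 3914 with it. For Enpp2 the closest were the sparse transcripts Gm20658 (0.92), 4833419F23Rik (0.85) and Gm7293 (0.85).

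In EO771 cells 12-HETE was compared with vehicle, and Enpp2 rose. Its normalised counts were 147, 163 and 194 with vehicle and 465, 376 and 367 with 12-HETE. Every treated library lay above every vehicle library. The log2 fold change was 1.26 ± 0.17 (95% interval 0.92 to 1.602, DESeq2 adjusted p = 8.97e-12), and over 10 alternatives it ran from 1.15 to 1.37 with the call kept in each. It was 1 of 7 tested members called higher, beside 2.38% of all tested genes, and 0 were called lower, beside 7.79%. By edgeR the same comparison called 1 member in all.

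Spns2 and Sphk2 had lower values with 12-HETE and did not pass the fold threshold. Spns2 had 835, 906 and 628 normalised counts with vehicle and 504, 563 and 482 with 12-HETE, a log2 fold change of -0.61 ± 0.16 (DESeq2 adjusted p = 0.00069). Sphk2 had 858, 1296 and 733 with vehicle and 671, 644 and 649 with 12-HETE, a log2 fold change of -0.56 ± 0.20 (DESeq2 adjusted p = 0.0154). The Sphk2 value was -0.29 without vehicle replicate 2, and its adjusted p was up to 0.0736 with a library left out. Neither gene's groups overlapped. By adjusted p alone 1 member was higher, beside 22.7% of all genes, and 2 were lower, beside 24.2%. Lpar6 (240 to 287 normalised counts with vehicle, 233 to 256 with 12-HETE), S1pr1 (131 to 169 and 171 to 189), Sphk1 (58.3 to 75.5 and 65.0 to 88.3) and Lpar5 (12.4 to 31.7 and 24.6 to 25.6) had DESeq2 adjusted p-values of 0.309 to 0.871. Lpar4 and S1pr3 were at 0 in all 6 libraries, and Lpar1 was at 11.5 or less.

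Per kilobase of exon, the order with vehicle was Sphk2, Spns2, S1pr1, Lpar6, Enpp2, Lpar5, Sphk1 and Lpar1, where Sphk2 overlapped Spns2, S1pr1 overlapped Lpar6 and Lpar5 overlapped Sphk1 across libraries. With 12-HETE Enpp2 stood above S1pr1 and Lpar6 in all 3 libraries, at 63.5 to 80.5 normalised counts per kilobase against 56.0 to 62.0 for S1pr1. In endothelium S1pr1 came before all other members in each group. It was followed by Spns2 and Sphk2 in BEC normal and HEC normal, by Sphk2 and Spns2 in BEC tumour, and by Spns2 and Lpar6 in HEC tumour, with overlap only between Spns2 and Sphk2 in HEC normal.

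**Figure D5:**
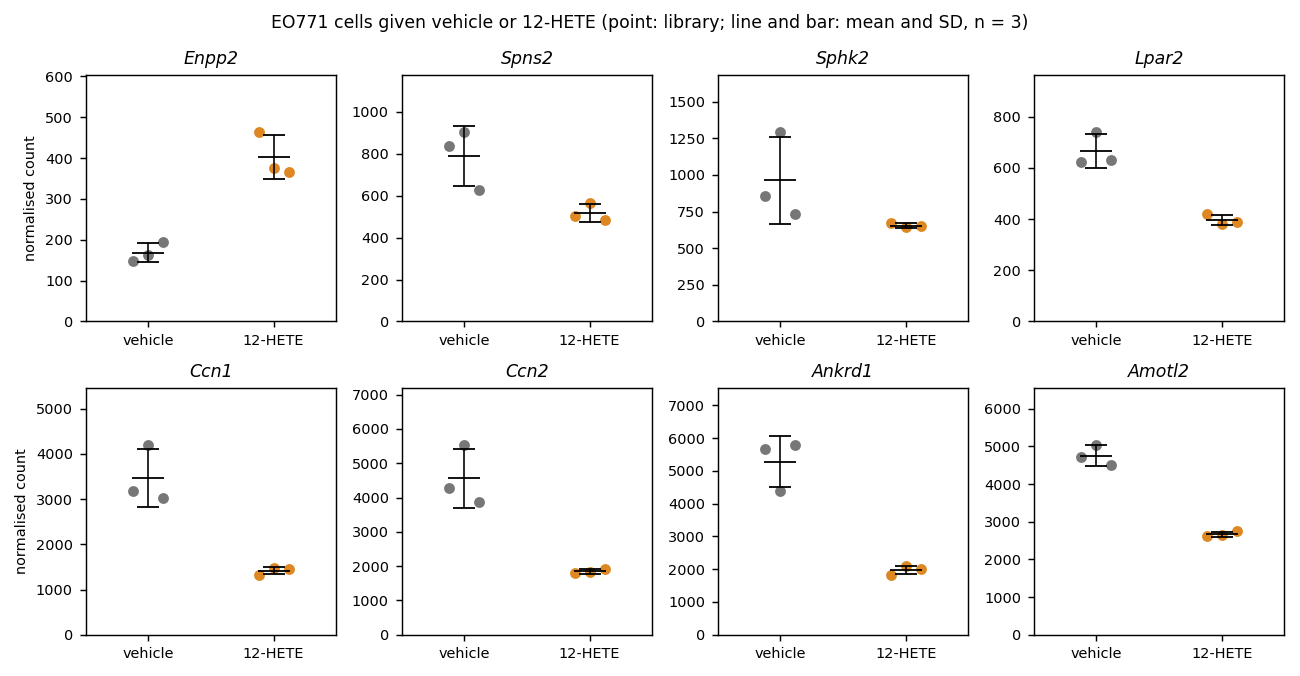
Normalised counts (vertical axis from 0, own scale per gene) of Enpp2, Spns2, Sphk2, Lpar2 and 4 YAP and SRF target genes in EO771 cells given vehicle or 12-HETE; points are libraries, and lines with bars are the mean and SD of 3. Enpp2 lies at 147 to 194 with vehicle and 367 to 465 with 12-HETE, and Ccn1, Ccn2, Ankrd1 and Amotl2 are lower in every treated library.

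Of the 38 other pathway genes 29 were tested in EO771 cells, and 1 was called higher, beside 2.38% of all genes, and 3 lower, beside 7.79%. Those 3 belong to the 4 genes induced through YAP and SRF, the transcription programmes that G12/13-coupled LPA and S1P receptors can switch on. Ccn1 fell by 1.29 ± 0.15 on the log2 scale, Ccn2 by 1.30 ± 0.15 and Ankrd1 by 1.42 ± 0.13, with DESeq2 adjusted p-values of 2.53e-17, 8.41e-18 and 2.07e-24. Amotl2 differed by -0.83 ± 0.09 (DESeq2 adjusted p = 6.35e-21), under the fold threshold. The median of the list was -1.30, where that of all tested genes was 0.00. The list was chosen with earlier results of these data known, so its median is a description and not a test. Ankrd1 had 5678, 4373 and 5793 normalised counts with vehicle and 1831, 2091 and 2009 with 12-HETE. The gene called higher was Rock1 (1.07 ± 0.27, DESeq2 adjusted p = 0.000358), at 587, 359 and 934 with vehicle and 1334, 1292 and 1327 with 12-HETE, and at 0.78 without vehicle replicate 2. Lpar2, at 623.4 to 742.5 with vehicle and 379 to 419 with 12-HETE, had a log2 fold change of -0.75 ± 0.13 (DESeq2 adjusted p = 5.71e-08), under the fold threshold.

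Marker levels of the line also differed with treatment. The 7 epithelial markers, all detected, summed to 3243 to 4251 CPM with vehicle and 2184 to 2240 CPM with 12-HETE. The 11 fibroblast and pericyte genes summed to 391 to 614 CPM with vehicle and 998 to 1037 CPM with 12-HETE, with Lum and Ccl19 at 0 in both groups, Col1a2 and Col3a1 also at 0 with 12-HETE, and 2 of the 11 over a mean of 10. The part of these differences in the Enpp2 values was not tested.

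Promoter sequences are shown for Ccn1, Ankrd1 and Amotl2 of the YAP and SRF genes, which had lower values with 12-HETE in EO771 cells, and for Lpar6 and Spns2 of the set. Ccn2, Enpp2 and S1pr1 had no entry. Each run is the 250 bases before the RefSeq start (GRCm38.p6), 5′ to 3′ on the strand of the gene, with matches to the TEAD motif GGAATG, read on either strand (CATTCC), in capitals.
Ccn1, chr3:145649986-145650235, minus strand: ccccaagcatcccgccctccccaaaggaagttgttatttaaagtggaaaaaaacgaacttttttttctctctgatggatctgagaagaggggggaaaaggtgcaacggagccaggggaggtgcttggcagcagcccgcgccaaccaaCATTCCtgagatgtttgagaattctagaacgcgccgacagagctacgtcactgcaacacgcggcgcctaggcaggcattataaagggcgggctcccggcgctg
Ankrd1, chr19:36119845-36120094, minus strand: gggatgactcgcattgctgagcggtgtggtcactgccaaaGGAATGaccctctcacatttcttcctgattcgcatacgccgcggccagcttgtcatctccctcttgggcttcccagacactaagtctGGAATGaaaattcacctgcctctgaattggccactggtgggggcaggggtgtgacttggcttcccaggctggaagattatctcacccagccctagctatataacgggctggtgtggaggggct
Amotl2, chr9:102717554-102717803, plus strand: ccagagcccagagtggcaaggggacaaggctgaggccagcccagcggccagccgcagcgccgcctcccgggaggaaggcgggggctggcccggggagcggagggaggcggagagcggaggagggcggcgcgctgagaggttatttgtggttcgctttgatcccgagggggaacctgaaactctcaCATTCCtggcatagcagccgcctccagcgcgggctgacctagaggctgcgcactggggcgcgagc
Lpar6, chr14:73237641-73237890, plus strand: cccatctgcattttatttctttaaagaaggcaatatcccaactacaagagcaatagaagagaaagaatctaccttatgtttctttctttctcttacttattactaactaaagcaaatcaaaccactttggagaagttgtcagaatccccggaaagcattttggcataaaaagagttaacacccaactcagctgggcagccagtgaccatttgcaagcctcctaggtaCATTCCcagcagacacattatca
Spns2, chr11:72475028-72475277, minus strand: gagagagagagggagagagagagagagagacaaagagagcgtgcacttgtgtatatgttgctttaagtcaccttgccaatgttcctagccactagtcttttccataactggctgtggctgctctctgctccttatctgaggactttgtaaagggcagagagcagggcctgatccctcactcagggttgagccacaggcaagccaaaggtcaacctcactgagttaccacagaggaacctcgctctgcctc
TEAD proteins carry YAP to DNA. Ankrd1 held 2 matches, and Ccn1, Amotl2 and Lpar6 held 1 each, at 103, 65 and 23 bases before the start. The Spns2 window held 0. The windows of Spns2, Ankrd1 and Amotl2 lie inside the gene as the GENCODE annotation draws it. The 8 members with an entry had 16 entries between them, of which 2, for Lpar6 and Sphk1, had a match. Among 32851 promoters of the same length 12.6% held the TEAD motif, a share like that of the members' entries, and 1.47% the CArG box bound by SRF, which was found in 0 members. A match is a description of the sequence, not of binding.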

How the data were processed

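RNA-seq of 12 sorted endothelial libraries and 6 EO771 libraries was analysed, with 3 per group. The authors aligned reads to GRCm38 with STAR and counted them per gene with featureCounts. For EO771 cells the methods name a strand-specific kit and removal of duplicates before alignment, where the labels name another kit for all libraries. Whether counting used strand, and how duplicates were handled in the endothelial libraries, is not given in the sources used here. The deposited EO771 values are raw counts. The deposited endothelial values are whole numbers in a raw count table, but they cluster at multiples of a step of 3.73 to 3.78 per library, so they were treated as estimated counts and also refitted after division by the step. How the step arose is not given in the sources used here.

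Groups came from the labels. Endothelial identifiers were matched to GENCODE symbols (260 had none), and 33 EO771 symbols stood on more than 1 line. All libraries of a table entered 1 DESeq2 1.42.0 fit (R 4.3.3), with a Wald test, Benjamini-Hochberg adjustment over all genes with a mean value of at least 10, and a call at an adjusted p under 0.05 with a log2 fold change beyond 1 in either direction. The interaction was a contrast of the 4 endothelial groups. All 10 members are named, with those of 38 other pathway genes that were called (at most 8 per comparison), summed marker levels, and the 3 genes most like Enpp2, S1pr1 and Spns2. Values of Lpar2, Ccn1, Amotl2 and Ankrd1 in comparisons that did not call them were added after they were seen. A called pathway gene is not reported here. The members and lists were chosen with earlier results of these data known. P-values measure the spread between these libraries, which may be technical. An exact permutation test of 3 against 3 cannot go below 0.1. Ratios of sparse genes carry exact 95% intervals that cover counting error only, and none is given where a group is at 0.

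Alternatives were TMM size factors, edgeR 4.0.16, no filter, only the groups compared, a replicate block, division by the step, the adjusted p alone and each library left out in turn. Leaving out HEC normal replicate 2 and BEC tumour replicate 2 together was added after seeing the data. In EO771 cells same-numbered libraries deviated together (correlations 0.111, 0.173 and 0.328 over 9635 genes). The main fit, which gave the EO771 p-values in the results, left this pairing out, and the replicate block took it in. In the endothelial libraries the correlations were -0.0147 to 0.126 over 13290 genes, and the libraries were not treated as paired. On simulated data, recovery was counted at an adjusted p under 0.05 with the right sign, without the fold threshold. In HEC tumour against HEC normal (18511 genes) it was 76.9% for a true 2-fold rise and 68.9% for a 2-fold fall. In EO771 (11602 genes) it was 98% and 95.5%. The changed genes were drawn from those above a minimum mean. Every group was simulated from the mean of the gene over all libraries of the table, and the endothelial step was not simulated. The recovery therefore does not cover genes as low in HECs as Lpar1, S1pr3 and Sphk1, at group means of 2.55 to 31.4 normalised counts. The median fitted log2 fold change for the 2-fold rise in HECs was 1.01, so recovery by the full rule for a call was not measured.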

Additional observations from a re-analysis of the deposited data

Results flagged for a closer look

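HECs and BECs differed in their response to tumour by the interaction test of DESeq2 for 5 of 9 tested members at an adjusted p under 0.05. The sign was positive for 4, beside 22.9% of all tested genes, and negative for 1, beside 23.8%. Of the 33 other pathway genes tested 14 had an adjusted p under 0.05, 10 with a positive and 4 with a negative sign. The 3 that also passed the fold threshold, all positive, are given, beside 11.2% of all genes. Given as the log2 change in HECs less that in BECs, the difference was 3.69 for Lpar1, 2.86 for Spns2, 0.542 for S1pr1, 0.263 for Lpar6 and -1.28 for Lpar4. It was 4.10 for Ccn2, 3.16 for Acer2 and 2.56 for Plpp3. Spns2, the S1P exporter, and Plpp3, a phosphatase of extracellular LPA and S1P, each had lower values with tumour in BECs and higher values with tumour in HECs. The adjusted p of the Lpar6 difference was above 0.05 in most of 18 alternatives, at up to 0.134. For Lpar1 the HEC libraries held at most 14.8 normalised counts. Both cell types were each sorted from another organ, HECs from lymph node and BECs from fat pad or tumour, and the organ and the cell type cannot be told apart. In BECs the change with tumour was also a change of tissue, from fat pad to tumour, while HECs came from lymph node in both states.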

How the results depend on the processing

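By DESeq2 with the adjusted p alone, the members called were 4 in HECs with tumour (0 with the fold threshold), 5 in the interaction (3) and 3 in EO771 cells (1). With libraries left out, HECs with tumour called 0 to 1 members, BECs with tumour 1 to 3 (4 with all libraries) and the interaction 1 to 3. Enpp2 changed sign in the endothelial comparisons: its log2 fold change ran from -0.026 (without HEC normal replicate 3) to 1.35 in HEC normal against BEC normal, and from -0.11 (without HEC normal replicate 2, also with BEC tumour replicate 2) to 1.27 in HECs with tumour. It ran from -0.73 (without BEC tumour replicate 2, also with HEC normal replicate 2) to 0.88 in BECs with tumour, and from -0.61 to 1.18 in the interaction. Sphk1 ran from -0.10 to 1.53 in HECs with tumour, and in the interaction S1pr3 from -2.20 to 2.74 and Sphk2 from -0.17 to 0.035. In EO771 cells Lpar5 ran from -0.22 to 0.37 and Sphk1 from -0.062 to 0.17. With a replicate block, called members were 5, 6, 0, 3, 2 and 1 (HECs against BECs without and with tumour, tumour in HECs, tumour in BECs, interaction, EO771), where Lpar1 was lost at log2 fold changes of -2.25 in BECs (DESeq2 adjusted p = 0.131) and 4.10 in the interaction (adjusted p = 0.075). In EO771 cells, where same-numbered libraries deviated together and the main fit was unpaired, the block left Enpp2 called, at 1.26. With the fold threshold kept, Spns2 and S1pr1 stayed on their side of it in every alternative run. Endothelial values move in steps of 3.73 to 3.78 units, so Lpar1, S1pr3 and Sphk1 in HECs, Lpar5 and Enpp2 in HEC normal replicate 2 rest on few steps. The cause of the changes was not tested.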
